A study of Mus musculus with 30 samples.

Results

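Ctcfl, Yy1, Zfp143, Maz, Patz1, Vezf1, Chd8, Adnp and Ldb1 are 9 genes whose products are the germline paralogue of CTCF or proteins that share sites, loops or complexes with it. They were chosen by name, and all 9 were found among the 48709 genes counted. The measurements are RNA-seq fragment counts from 5 tissues of adult C57BL/6 mice: brain, kidney, liver, quadriceps muscle and spleen. In each tissue 3 libraries came from wild-type mice and 3 from mice heterozygous for Ctcf (Ctcf+/-), which keep 1 functional copy; the labels name neither the mutant allele nor a tissue-specific driver. All 30 libraries were made from total RNA. The series design names 3 mice of each genotype, and the labels do not say which tissues came from the same mouse.

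CTCF is a zinc-finger protein that binds DNA at insulators and stops the cohesin ring as it extrudes chromatin loops. Several other proteins work at the same sites or at the loop ends that join promoters to enhancers. CTCFL, also called BORIS, has a DNA-binding domain close to that of CTCF and is known from the male germ line. YY1 bridges enhancers and promoters as a dimer, and ZFP143 is a zinc-finger activator of promoters found at loop anchors. MAZ, PATZ1 and VEZF1 bind G-rich DNA through related zinc fingers, CHD8 is a chromatin remodeller that was isolated with CTCF, ADNP forms a complex with CHD4 and HP1 that competes for CTCF sites, and LDB1 is a dimerising adaptor that joins LMO and GATA proteins into enhancer loops.

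Promoter sequence, which is independent of the counts, was available from RefSeq (GRCm38.p6) for 8 of the 9 factors, as windows from 250 bases before to 50 bases after each annotated start. The first window of each of the 8 genes was richer in G and C than the median of all 32851 windows. GC content ran from 55.7% for Patz1 to 84.0% for Vezf1, against a median of 52.7%. The ratio of observed to expected CpG ran from 0.578 for Adnp to 1.19 for Ldb1, against a median of 0.384. The TATA box letters TATAAA, searched on both strands, were in 0 of the 13 windows of these genes and in 13.6% of all windows. The G-rich letters GGGAGGG, of the kind that MAZ binds, were found on either strand in 6 of the 13 windows, which belong to Maz, Patz1, Chd8 and Ldb1, and in 22.0% of all windows. Those 6 windows held 67.3% to 87.3% G and C, and the share among windows of like GC content was not counted. The 6 of 13 is therefore not read as a result about the factors. The ZFP143-type letters ACTACAA were in 0 of the 13 windows and 3.24% of all. YY1-type letters GCCATNTT were in windows of Adnp and Vezf1 and in 6.05% of all windows. The Ctcf promoter itself held both GGGAGGG and GCCATNTT. The following 3 stretches of 210 bases end 41 bases before the first annotated start. They are shown because Maz encodes the protein that binds such letters, Ctcf is the gene with 1 copy lost, and Chd8 was the factor closest to Ctcf across tissues. Capitals mark GGGAGGG read on either strand, with 4 matches in Maz at chr7:127027046-127027255 (minus strand), 2 in Ctcf at chr8:105636288-105636497 (plus strand) and 1 in Chd8 at chr14:52257801-52258010 (minus strand).
Maz: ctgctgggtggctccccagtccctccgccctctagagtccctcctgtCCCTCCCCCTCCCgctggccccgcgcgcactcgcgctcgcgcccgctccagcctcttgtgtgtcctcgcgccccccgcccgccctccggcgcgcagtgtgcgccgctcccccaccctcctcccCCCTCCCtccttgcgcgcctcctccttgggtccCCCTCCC
Ctcf: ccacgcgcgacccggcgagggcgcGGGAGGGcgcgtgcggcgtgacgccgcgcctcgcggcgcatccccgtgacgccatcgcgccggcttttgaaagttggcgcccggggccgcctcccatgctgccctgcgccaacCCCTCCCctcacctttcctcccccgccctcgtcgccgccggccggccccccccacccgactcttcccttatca
Chd8: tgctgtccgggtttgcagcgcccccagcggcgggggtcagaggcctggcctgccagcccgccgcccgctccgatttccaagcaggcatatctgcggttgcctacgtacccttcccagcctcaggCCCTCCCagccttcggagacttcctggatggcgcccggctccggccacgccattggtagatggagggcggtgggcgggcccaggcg

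Library totals were 49.8 M to 131.6 M counts. Defining markers of the labelled tissue (5 per tissue, and B cell and T cell markers for spleen) were all detected in every library of that tissue. In spleen, WT replicate 1 and heterozygous replicate 2 stood apart from the other 4 libraries on a first principal component that held 53.0% of the variance. The spleen genotype tests of Ctcf and the factors are therefore also given without both, and the tissue pairs also without spleen WT replicate 1. In brain, kidney and liver the first component (46.7%, 31.4% and 39.1% of the variance) put replicate 3 of both genotypes at 1 end. The main genotype fits do not model replicate number, which is used as a block among the alternatives. Traces of other tissues moved with genotype. Kidney markers summed to 11.6 to 23.2 CPM (counts per 1 M of the library) in the heterozygous spleen libraries against 0.0817 to 0.334 CPM in WT. Liver markers summed to 32.0 to 37.0 CPM in WT spleen against 0.0985 to 0.307 CPM in heterozygous spleen. Kidney markers in muscle summed to 8.92 to 67.3 CPM in WT and 0.103 to 5.26 CPM in heterozygous libraries. Muscle markers in kidney went with replicate number instead. They summed to 147 CPM in WT replicate 3 and 184 CPM in heterozygous replicate 3, against 0.109 to 0.294 CPM in the other kidney libraries. In bulk tissue, fewer cells of a type and less RNA per cell cannot be told apart.

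For Adnp the counts cover a small part of the gene. Its exons in the deposited annotation span 5350 bases on chromosome 2 (168180986 to 168207112, minus strand), and 4393 of them (82.1%) also belong to the read-through model Gm20716. A fragment that overlaps 2 genes was not counted, and Gm20716 itself held 0 to 7 counts per library. The 957 countable bases lie in 2 segments, 168204357 to 168204774 and 168206574 to 168207112. They hold 0 of the 3324 coding bases that GENCODE M21 (GRCm38) gives for Adnp, while 714 are untranslated exon bases of its coding transcripts. A transcript annotated as a retained intron holds 554, of which 243 are in that transcript alone. The values below therefore measure the upstream non-coding end of Adnp. Of the other factors, Yy1, Maz and Vezf1 share no exon base with another gene, and the shared part is 3.13% in Zfp143, 4.94% in Ldb1, 5.12% in Chd8, 5.32% in Ctcfl and 11.7% in Patz1.

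Ctcf, the gene with 1 copy lost, was lower in each heterozygous library than in any WT library of its tissue. CPM here are scaled by TMM within each tissue. In brain the WT libraries held 66.5, 68.1 and 71.7 CPM and the heterozygous libraries 40.9, 44.4 and 42.8 CPM. In spleen, where the gene was most abundant, WT held 176, 229 and 195 CPM and heterozygous 134, 105 and 154 CPM. The brain log2 fold change was -0.69 (SE 0.06, n = 3 per group, edgeR quasi-likelihood test, adjusted p = 0.0259). It was -0.70 for kidney, -0.66 for liver, -0.57 for muscle and -0.62 for spleen, where the adjusted p did not pass in the single-tissue fits (edgeR, 0.107 or more). The brain call was lost when any 1 of the 6 libraries was left out (edgeR adjusted p 0.1005 to 0.292), with log2 fold changes that stayed between -0.72 and -0.65, and in the fit of all 30 libraries, where the value was -0.62. Brain still passed with DESeq2 (adjusted p = 5.8e-16), the replicate block (edgeR adjusted p = 0.000379) and the 1-count filter (edgeR adjusted p = 0.000623). It also passed with DESeq2 size factors, total counts and the 10-count filter (edgeR adjusted p 0.0200 to 0.0288). Kidney passed with the replicate number as a block (edgeR adjusted p = 0.0440) and without heterozygous replicate 3 (edgeR adjusted p = 0.0364). It also passed with a filter of 1 count in all (edgeR adjusted p = 0.0119) and with DESeq2 (adjusted p = 4.3e-07). Muscle passed with DESeq2 (adjusted p = 0.0043) and spleen in the fit of all 30 libraries (edgeR adjusted p = 0.0219), while liver passed in no setting. Spleen gave -0.58 without both libraries that stood apart, and did not pass (edgeR adjusted p = 0.609). The effect shared by tissues was -0.63 (SE 0.06, 30 libraries, edgeR adjusted p = 4.0e-07). That fit treats the libraries as independent, although by the series design they come from 3 mice per genotype. Averaged over tissues by replicate number, as if 1 number were 1 mouse, which the labels do not say, the difference was -0.65 (exact permutation test, 2-sided, p = 0.1, the smallest that 3 against 3 allow).

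None of the 9 factors passed the genotype test in any tissue. With enough counts to test, 0 of 8 brain, 0 of 9 kidney, 0 of 9 liver, 0 of 8 muscle and 0 of 8 spleen comparisons were called (edgeR, adjusted p under 0.05), and Ctcfl was too low to test in brain, muscle and spleen. Few genes of any kind were called: 0.0157% of those tested for brain, 0.0211% for kidney, 0.0193% for liver, 0.0249% for muscle and 0.242% for spleen, so a count of 0 among 9 is near the background. At an unadjusted p under 0.05 the count was also 0 in each tissue, against 2.96%, 6.44%, 4.56%, 6.45% and 3.52% of all genes in the same order, and DESeq2 called 0 as well. The lowest unadjusted p was 0.0859, for Ctcfl in kidney. The median absolute log2 fold change of the tested factors was 0.04 for brain, 0.07 for kidney, 0.08 for liver, 0.05 for muscle and 0.07 for spleen, against 0.07, 0.11, 0.13, 0.13 and 0.13 over all genes in that order.

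**Figure D1:**
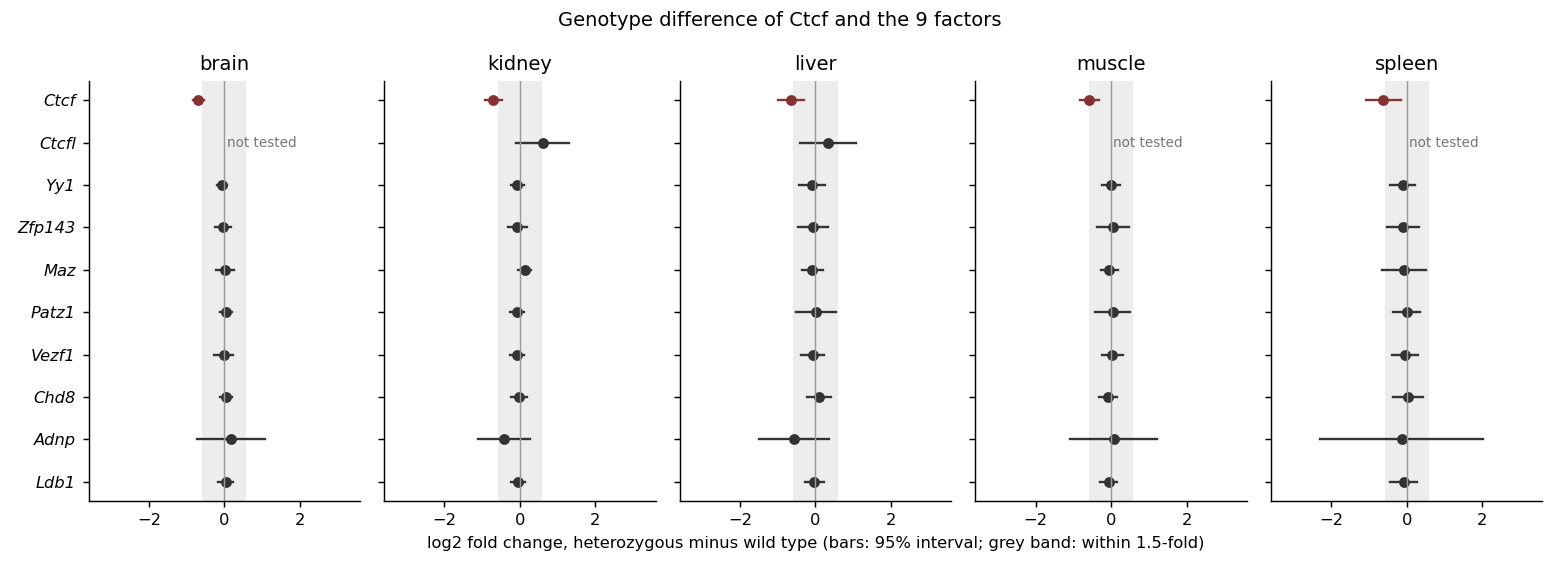
Log2 fold change of heterozygous over WT (x axis) for Ctcf and the 9 factors in each of 5 tissues. Points are edgeR estimates from 3 against 3 libraries, bars are 95% intervals and the grey band marks changes within 1.5-fold; Ctcf lies between -0.70 and -0.57 in every panel, while the bars of all factors tested cross 0.

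How firmly a change of this kind could be seen differed by tissue and gene. The 95% interval of the fold change lay within 1.5-fold in either direction for 7 of 8 brain, 7 of 9 kidney, 7 of 9 liver, 7 of 8 muscle and 6 of 8 spleen comparisons. The exceptions were Adnp in all 5 tissues, Ctcfl in kidney and liver, and Maz in spleen. The interval lay wholly above the estimate for Ctcf for 7, 8, 8, 7 and 6 factors in the same order. That estimate was taken as fixed, although its SE ran from 0.06 in brain to 0.19 in spleen. The shares over all genes were not counted for either kind of interval, so neither count is read as a result about the factors. In counts simulated from these libraries, 100 genes were changed by 1.5-fold and another 100 by 2-fold, all with a mean above 5 CPM. Of the 1.5-fold genes the same fit called 74 with the brain libraries, 44 with kidney, 9 with liver, 23 with muscle and 0 with spleen. Of the 2-fold genes it called 96, 96, 67, 88 and 0 in that order. Ctcfl, Adnp and, in liver, Patz1 lie below 5 CPM and are not covered. With so many changed genes planted the adjustment is easier to pass, so these are not rates for the factors.

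Ctcfl, on chromosome 2 (173093609 to 173119525, minus strand), had the lowest WT mean of the 9 per base of unshared exon in all 5 tissues, although by CPM the Adnp end was lower in liver. Its counts were 2, 1 and 0 in the WT brain libraries and 0, 1 and 2 in the heterozygous ones, all at or below the floor of 3 counts (0.0229 to 0.0606 CPM), which covers counting error only. In muscle the WT libraries held 22, 2 and 6 counts and the heterozygous libraries 4, 5 and 8, and in spleen 3, 9 and 7 against 9, 10 and 5. These groups overlapped. In kidney the groups were separate, with heterozygotes higher: 0.283, 0.225 and 0.173 CPM in WT (27, 20 and 17 counts) and 0.391, 0.299 and 0.344 CPM in heterozygotes (37, 25 and 34 counts). The log2 fold change was 0.60 (SE 0.31, 95% interval -0.11 to 1.31, edgeR adjusted p = 0.863), which did not pass. In liver, the tissue with the most Ctcfl, WT held 0.487, 0.869 and 0.786 CPM and heterozygotes 0.766, 0.849 and 1.09 CPM, with overlapping groups and a log2 fold change of 0.33 (SE 0.32). Of 7 germ cell markers, Tnp1 had 0 counts in all 30 libraries, Prm2 in 24, Stra8 in 16 and Prm1 in 13. The other 3 were detected in nearly all, with a median of 34.5 counts for Ddx4, 10 for Dazl and 32 for Sycp3. The 7 summed to 4.17 to 5.04 CPM in WT kidney and 4.41 to 5.74 CPM in heterozygous kidney, which overlapped, and to 0.0888 to 0.222 CPM in liver. Proliferation markers in kidney summed to 16.0 to 45.4 CPM in heterozygotes and 12.8 to 14.4 CPM in WT, and their part in the kidney values was not tested.

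Yy1 and Zfp143, which act at promoters and loop ends, had genotype groups that overlapped in all 5 tissues. Yy1 (chromosome 12, 108792973 to 108816632, plus strand) held 38.6, 36.7 and 39.4 CPM in WT brain and 37.2, 36.7 and 35.7 CPM in heterozygous brain. The groups shared the range from 36.7 to 37.2 CPM, and the log2 fold change was -0.07 (95% interval -0.21 to 0.08), the least p of any factor in that tissue (unadjusted p = 0.319, edgeR). In spleen Yy1 held 106, 125 and 113 CPM in WT and 112, 95.3 and 113 CPM in heterozygotes, for a log2 fold change of -0.11 (SE 0.14). Zfp143 (chromosome 7, 110061217 to 110095394, plus strand) held 9.22, 10.8 and 10.3 CPM in WT brain and 9.80, 9.71 and 10.1 CPM in heterozygous brain, and its log2 fold changes over the 5 tissues ran from -0.09 in spleen to 0.05 in muscle. Its shared log2 fold change over all tissues was -0.02 (SE 0.07), and that of Yy1, whose single-tissue values ran from -0.11 to 0.01, was -0.05 (SE 0.05).

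Among the G-rich binders, Maz (chromosome 7, 127022130 to 127027037, minus strand) gave the only other separation of the groups. In kidney WT held 97.0, 107 and 102 CPM and heterozygotes 113, 108 and 112 CPM. The lowest heterozygous library was just above the highest WT library, and the difference was small: a log2 fold change of 0.12 (SE 0.08, 95% interval -0.06 to 0.30, edgeR adjusted p = 0.9501). Ctcfl and Maz were thus 2 of 9 factors with groups that did not overlap, both higher in heterozygous kidney, where 6.15% of all genes were separated in that direction and 11.4% in either. No factor was separated in the other 4 tissues, where the share of all genes was 7.83% (brain), 8.99% (liver), 12.2% (muscle) and 6.64% (spleen). In brain, liver, muscle and spleen the log2 fold change of Maz was between -0.08 and 0.01. Patz1 (chromosome 11, 3288874 to 3309083, plus strand) overlapped by genotype in every tissue. It held 27.5, 30.2 and 28.0 CPM in WT brain and 30.0, 28.5 and 29.9 CPM in heterozygous brain. Vezf1 (chromosome 11, 88068279 to 88084729, plus strand), known for its role in blood vessel formation, held 77.8, 80.4 and 101 CPM in WT muscle and 90.2, 83.1 and 92.5 CPM in heterozygous muscle. The heterozygous values fell inside the WT range, with a log2 fold change of 0.04 (SE 0.12). Over the 5 tissues the log2 fold change ran from -0.08 to 0.04 for Patz1 and from -0.07 to 0.04 for Vezf1.

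Chd8 and Ldb1 likewise overlapped in all 5 tissues. Chd8 (chromosome 14, 52198151 to 52257723, minus strand), a remodelling ATPase also known as a repressor of Wnt target genes, held 80.5, 84.6 and 84.9 CPM in WT brain and 79.4, 85.4 and 91.7 CPM in heterozygous brain. Its interval in brain, -0.12 to 0.19 on the log2 scale, was among the narrowest. Ldb1 (chromosome 19, 46032593 to 46045214, minus strand) held 17.2, 17.2 and 17.1 CPM in WT muscle and 15.2, 16.6 and 17.5 CPM in heterozygous muscle, with 1 heterozygous library above the WT range. In spleen it held 317, 299.7 and 288 CPM in WT and 268, 325 and 267 CPM in heterozygotes. Over the 5 tissues the log2 fold change ran from -0.09 to 0.09 for Chd8 and from -0.07 to 0.03 for Ldb1. Adnp, over its countable end, held 2.56, 1.88 and 2.23 CPM in WT kidney and 2.25, 1.77 and 0.972 CPM in heterozygous kidney, and 0.384, 0.348 and 0.639 CPM against 0.441, 0.229 and 0.249 CPM in liver. Both pairs of groups overlapped, with log2 fold changes of -0.42 (SE 0.30) and -0.56 (SE 0.41).

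**Figure D2:**
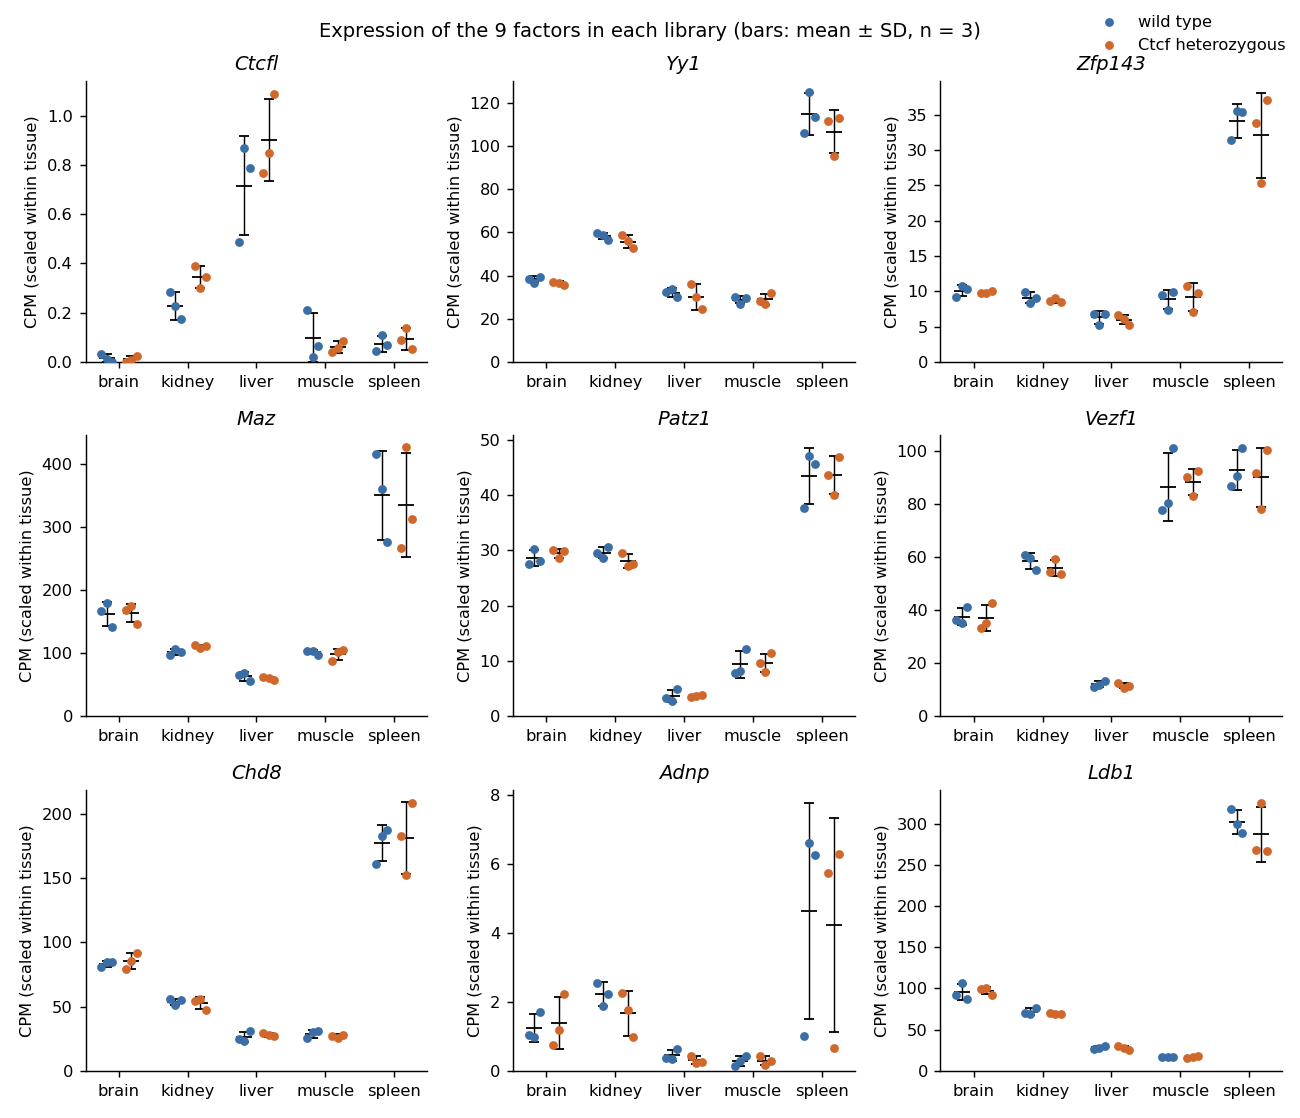
CPM of each factor (y axis, linear, TMM-scaled within a tissue) in the 3 WT and 3 heterozygous libraries of 5 tissues (x axis). Dots are libraries and bars are mean ± SD; the 2 genotypes overlap everywhere except for Ctcfl and Maz in kidney, and Adnp in spleen has 1 low library in each genotype.

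Set against Ctcf RNA in the same library, most factors were higher in heterozygotes. This ratio of counts does not depend on scaling between libraries, and Ctcf, its denominator, was lower in heterozygotes. In brain the Chd8 to Ctcf ratio was 1.21 ± 0.03 (SD, n = 3) in WT and 2.003 ± 0.120 in heterozygotes, and the Yy1 to Ctcf ratio was 0.556 ± 0.022 and 0.857 ± 0.045. The ratio separated the genotypes, heterozygotes higher, for 7 of 8 brain, 8 of 9 kidney, 7 of 9 liver, 7 of 8 muscle and 5 of 8 spleen comparisons. The same held for 83.1%, 80.2%, 67%, 61.8% and 41.7% of all genes in that order, so most genes shift against Ctcf and these counts are not read as a result about the factors. The exact permutation test of 3 against 3 libraries cannot go below p = 0.1. The exceptions were Adnp in all 5 tissues, Patz1 in liver, and Maz and Ldb1 in spleen.

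Over all 30 libraries, 0 of 9 factors had a genotype effect shared by tissues (edgeR, 0.194% of all genes called) and 0 of 9 had an effect that differed between tissues (interaction test, 0.758% of all genes called). These fits treat the libraries as independent. The unadjusted counts and those of DESeq2 were 0 as well in both fits. The shared log2 fold change was -0.15 (SE 0.27) for Adnp and 0.18 (SE 0.25) for Ctcfl, and for the other 7 it lay between -0.05 and 0.03. The widest interval of those 7 was -0.16 to 0.11, for Zfp143.

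Genes related to the factors, or that work with them, were read from 4 lists: 10 related genes (Ctcf, Yy2, Zfp42, Chd7 and others), 18 complex partners (Chd4, HP1 genes, LMO and GATA partners of Ldb1), 10 other factors of CTCF sites and 10 cohesin genes. Of 45 listed genes tested in brain, 1 was called, Ctcf, which fell. In kidney, liver and muscle 0 of 45 were called and in spleen 0 of 46 (edgeR). Beyond Ctcf, the count at an unadjusted p under 0.05 was 1 lower in liver and 2 higher in muscle, and 0 in the other 3 tissues. These are 1 and 2 of 44 genes, no more than the 4.56% and 6.45% of all genes in liver and muscle. The liver gene was Bhlhe40, a circadian repressor, with 107, 187 and 166 CPM in WT and 71.4, 70.0 and 79.1 CPM in heterozygotes. The 3 heterozygous libraries were below the WT range, with a log2 fold change of -1.06 (SE 0.20, edgeR adjusted p = 0.388), and DESeq2 called this gene. In brain the same gene went the other way, at 85.9, 131 and 101 CPM in WT and 126, 145 and 128 CPM in heterozygotes (log2 fold change 0.32, SE 0.14). Its log2 fold change was 0.44 (SE 0.22) in muscle, 0.12 in kidney and 0.19 in spleen, and none of these passed. The 2 muscle genes were Cbx3, which encodes an HP1 protein (25.0 ± 0.57 CPM in WT, 29.1 ± 0.77 in heterozygotes, SD, n = 3), and Stag2, a cohesin subunit (49.6 ± 4.42 and 59.5 ± 5.29 CPM). Neither passed after adjustment. Proliferation markers in muscle summed to 0.505 to 2.62 CPM in WT and 3.06 to 5.14 CPM in heterozygotes, and their part in these values was not tested. Kidney's lowest p after Ctcf was that of Lmo4, an LDB1 partner, at 76.5 ± 6.28 CPM in WT and 87.5 ± 5.27 CPM in heterozygotes (log2 fold change 0.19, SE 0.09, edgeR adjusted p = 0.829). Spleen's was Ldb2, a paralogue of Ldb1, at 0.105 ± 0.045 and 0.164 ± 0.057 CPM.

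The factors differed far more between tissues than between genotypes. Levels are now TMM-scaled over the 15 WT libraries together, and each tissue was compared with each other by edgeR. Of 90 pairs of tissues (10 for each factor) 70 were called. Per pair of tissues the number called of 9 was 6 for brain against kidney (71.4% of all genes called), 7 for brain against liver (73.2%), 6 for brain against muscle (72.3%) and 8 for brain against spleen (79.8%). It was 5 for kidney against liver (54.1%), 6 for kidney against muscle (64.4%), 7 for kidney against spleen (75.5%), 7 for liver against muscle (64.2%), 9 for liver against spleen (72.9%) and 9 for muscle against spleen (75.2%). Some of these shares lie above and some below those of all genes. With 9 factors per pair they are not read as a result about the factors. In the 15 heterozygous libraries 71 pairs were called, and 66 were called in both genotypes in the same direction.

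Per base of unshared exon, the factors span a wide range of level. In spleen, on the FPKM scale (fragments per kilobase in a library of 1 M), Maz had 79.1 ± 13.8 (SD, n = 3), Ldb1 59.6 ± 1.9, Ctcf 30.0 ± 3.8, Yy1 26.6 ± 2.2, Vezf1 13.6 ± 1.6, Chd8 7.82 ± 0.82, Zfp143 6.81 ± 0.61 and Patz1 5.61 ± 0.73. The libraries of Ctcf and Yy1 overlapped, as did those of Chd8 and Zfp143. The countable end of Adnp had 3.28 ± 2.23 and Ctcfl 0.0164 ± 0.0069 FPKM. In brain Maz again led at 39.2 ± 5.0 FPKM, followed by Ldb1 at 20.1 ± 2.2, Ctcf at 10.98 ± 0.43 and Yy1 at 9.44 ± 0.28.

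**Figure D3:**
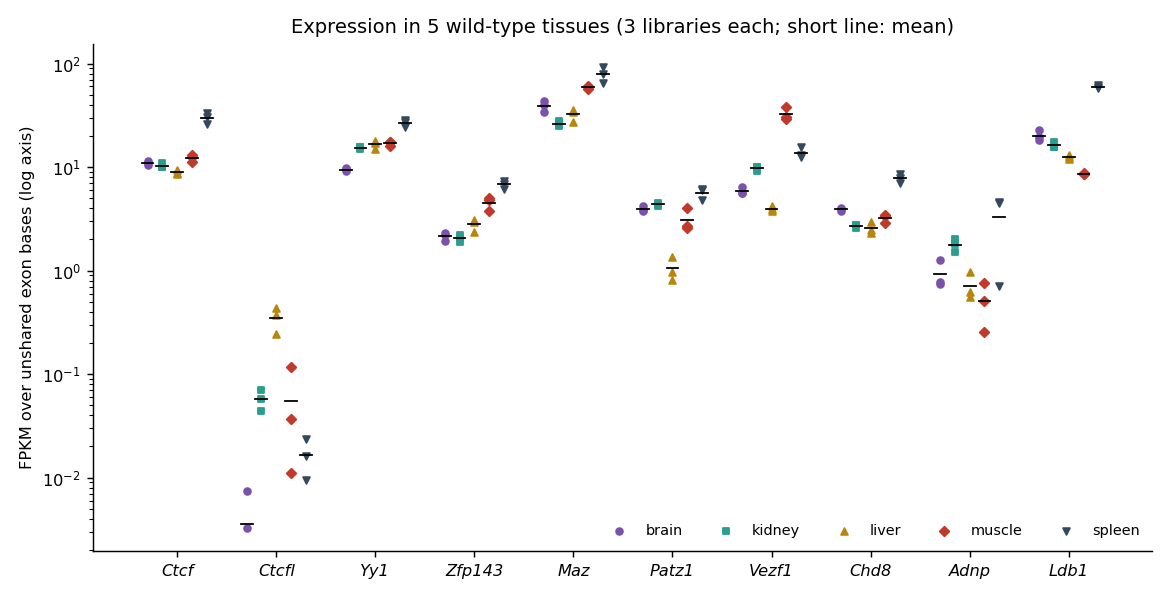
FPKM over unshared exon bases (y axis, log scale) of Ctcf and the 9 factors (x axis) in WT brain, kidney, liver, muscle and spleen, with 3 libraries per tissue as points and the mean as a short line. Spleen is highest for 8 of the 10 genes by mean, Vezf1 is highest in muscle and Ctcfl in liver; 1 brain library with 0 counts of Ctcfl cannot be drawn on this axis.

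Vezf1 and Ldb1 had the clearest order, with 10 of 10 pairs called in each genotype. Vezf1 ran from muscle (133, 139 and 173 CPM) through spleen (62.8 ± 7.3, SD, n = 3), kidney (45.0 ± 2.2) and brain (26.9 ± 2.2) to liver (17.3, 18.0 and 19.4 CPM), 8.15-fold from top to bottom. Ldb1 ran the other way in muscle: spleen led with 210.1, 197 and 202 CPM, then brain (68.4 ± 7.5), kidney (55.2 ± 3.5) and liver (42.7 ± 1.9), and muscle was last with 29.3, 29.8 and 29.3 CPM, 6.90-fold lower than spleen. Every neighbour in both orders differed (edgeR, adjusted p at most 0.0165, 3 libraries per tissue), though the step from brain to kidney for Ldb1 was lost without WT replicate 1 or WT replicate 2, and that from kidney to liver without WT replicate 1 or WT replicate 3. The top step of Vezf1, muscle over spleen, depended on the scaling. On total counts, without TMM, its log2 fold change was -0.11 (edgeR adjusted p = 0.554).

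The other factors had partial orders. Yy1 was highest in spleen (77.3 ± 6.3 CPM) and lowest in brain (27.4 ± 0.8 CPM), while muscle, liver and kidney, at 49.5, 48.2 and 44.7 CPM, were not called apart. Zfp143 was highest in spleen (23.0 ± 2.1 CPM), then muscle (15.3 ± 2.2) and liver (9.43 ± 1.27), and brain and kidney were not called apart (7.24 and 6.98 CPM). Its steps to liver were less firm: brain against liver was lost with DESeq2, with its size factors, with the 10-count filter, in the heterozygous libraries and without WT replicate 1 or WT replicate 3, and kidney against liver was lost without any 1 WT replicate number. Maz was highest in spleen (235 ± 41 CPM) and muscle (175 ± 6), and kidney, liver and brain lay at 78.4, 96.0 and 117 CPM, where only brain against kidney was called. Patz1 was set apart by liver, with 5.08, 4.21 and 7.09 CPM against 13.4 to 31.9 CPM in the 12 other WT libraries. Chd8 was highest in spleen (119 ± 12 CPM) and differed there from brain (59.7 ± 2.1). Muscle (49.4 CPM) was called apart from neither brain nor kidney, and kidney and liver were not called apart (41.3 and 39.3 CPM). Ctcfl was highest in liver (1.07 ± 0.29 CPM), followed by kidney (0.174 ± 0.041) and muscle (0.169 ± 0.170), which were not called apart, and no fold is given against brain, where all libraries were at or below 3 counts. The Adnp end gave 4 of 10 called pairs and no neighbours that differed. Of the 70 called pairs, 10 were lost without WT replicate 1 of every tissue, 11 without WT replicate 2 and 5 without WT replicate 3, and 0 turned over. Leaving out spleen WT replicate 1 alone lost 3 pairs and added 4. Those lost were Ctcfl in kidney against spleen, and Ctcfl and Maz in muscle against spleen.

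Comparisons across tissues depended on the scaling. On total counts alone, without TMM, the median gene's log2 difference shifted by 0.99 to 1.26 for brain or kidney minus liver or muscle, by -1.17 for liver minus spleen and by -1.32 for muscle minus spleen. Of the 70 called pairs 59 were called in the same direction on total counts, 6 were lost and 5 turned over: Yy1 in brain against liver and against muscle, Zfp143 in brain against liver and in kidney against liver, and Maz in brain against muscle. Among the lost pairs, Vezf1 in muscle against spleen fell from 1.24 to -0.11 on the log2 scale. With DESeq2 size factors 67 of the 70 were called in the same direction and 0 turned over.

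Ratios to Ctcf in the same library avoid that choice, but they also carry the tissue differences of Ctcf itself. Under the TMM scaling across tissues, WT muscle and spleen means were 54.8 and 135 CPM for Ctcf and 149 and 62.8 CPM for Vezf1. Scaled within each tissue, the WT means in muscle and spleen were 31.9 and 200 CPM for Ctcf and 86.5 and 93.0 CPM for Vezf1. A high ratio in muscle is therefore not read as more Vezf1 there than in spleen. The Vezf1 to Ctcf ratio in WT was 2.66, 2.51 and 2.95 in muscle and at most 1.03 in every library of the other tissues. Its mean was 2.71 ± 0.22 in muscle and 0.458 ± 0.045 in liver, a 5.91-fold span. The Ldb1 to Ctcf ratio was lowest in muscle (0.540 ± 0.044) and highest in spleen (1.53 ± 0.25), with brain at 1.39 ± 0.17. The Yy1 to Ctcf ratio was 0.556 ± 0.022 in brain and 0.576 ± 0.028 in spleen, and 0.908 ± 0.099 in muscle, 0.973 ± 0.039 in kidney and 1.21 ± 0.10 in liver. Chd8 had the smallest span of the 9, 1.36-fold, from 0.891 ± 0.083 in spleen to 1.21 ± 0.03 in brain.

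Closeness over all 15 WT libraries was ranked among 14723 genes by the root mean square difference of centred log2 CPM. Between a factor and Ctcf this rests on the same ratios, so it is not a second observation. Ctcf ranked 32nd in closeness to Chd8, with a difference of 0.19, and lower for each other factor (194th for Zfp143, 276th for Maz, 433rd for Ldb1 and 2034th for Vezf1). The 2 closest genes were Ppil4 and Rbm5 for Chd8 (0.11 and 0.12), Ints13 and Ddx18 for Yy1 (0.12 and 0.14), Kctd20 and Cdkn2aipnl for Maz (0.15 and 0.19), and Mre11a and Iws1 for Zfp143 (0.20 each). They were Cep250 and Chsy1 for Ldb1 (0.20 and 0.22), Pgpep1l and Csgalnact2 for Vezf1 (0.25 and 0.31), and Slf1 and Actg1 for Patz1 (0.31 and 0.32). Fits were looser for Ctcfl (Pex16 and Adh5, 0.44 and 0.45) and the Adnp end (Atp7a and Xpo4, 0.47 and 0.48). For Ctcfl the 0.1 CPM added before log2 exceeded every WT value in brain (0 to 0.0226 CPM) and spleen (0.0290 to 0.0712 CPM). Its profile in those tissues is thus mostly the added value. These values describe 15 libraries that share tissues and scaling.

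Within spleen, the split of the same 2 libraries from the others was widest for Adnp. Adnp held 1.02 CPM in WT replicate 1 and 0.661 CPM in heterozygous replicate 2 (70 and 48 counts), against 5.74 to 6.60 CPM in the other 4 libraries (549 to 623 counts). That split lies inside each genotype, so the Adnp log2 fold change was -0.13 with a 95% interval of -2.29 to 2.03, and -0.11 without these libraries. Without them 0 of the factors were called, and the values of the 8 tested lay between -0.15 (Maz and Ldb1) and 0.06 (Chd8). The same pair was lowest of its genotype for 6 of the 9 factors (Yy1, Zfp143, Patz1, Vezf1, Chd8 and Adnp) and for Ctcf, and highest for Maz and Ldb1. The pair was picked because it stood apart over all genes, and the share of all genes placed this way was not counted. These counts are therefore not read as a result about the factors. Maz held 416 and 427 CPM in the pair and 267 to 361 CPM in the others, and Ldb1 317 and 325 CPM against 267 to 299.7 CPM. Chd8 held 161 and 152 CPM in the pair and 183 to 208 CPM in the others. Erythroid markers (6 genes, globins among them) summed to 71969 and 62165 CPM in the pair and to 51771, 14694, 20472 and 34280 CPM in the other 4, while B cell markers (3943 and 3778 CPM) and T cell markers (687 and 813 CPM) stood beside 3573 to 5131 and 576 to 783 CPM in the others. Their part in the split was not tested.

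**Figure D4:**
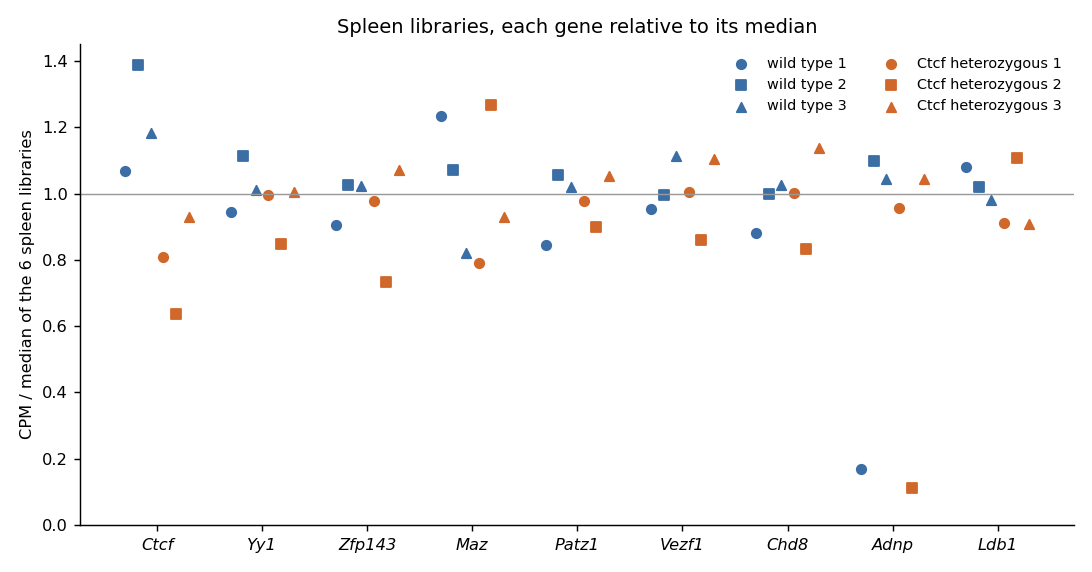
CPM of Ctcf and 8 factors (x axis) in each of 6 spleen libraries, divided by the median of the 6 (y axis, linear). Circles, squares and triangles are replicates 1, 2 and 3; WT replicate 1 and heterozygous replicate 2 lie far below the rest for Adnp and above them for Maz and Ldb1.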

How the data were processed

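The deposited values are counts of fragments per gene (a separate table for each tissue), which the authors made with featureCounts v1.5.0-p3 over exons of Ensembl release 86 (GRCm38), per the file headers. Pairs were counted as fragments, without regard to strand, and fragments in several genes were not counted. FastQC, STAR and DESeq2 are named in the submitters' processing notes, without versions. Coordinates are GRCm38 throughout.

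The 30 libraries were grouped by their titles. Counts were analysed with edgeR 4.0.16 in R 4.3.3: in each tissue the 6 libraries were filtered with filterByExpr, scaled by TMM and tested with the quasi-likelihood test and Benjamini-Hochberg adjustment over all genes tested (called at an adjusted p under 0.05). Standard errors and 95% intervals come from that fit. All 30 libraries were fitted for effects shared by tissues and for the interaction, and the 15 WT libraries for tissue pairs. FPKM were computed over exon bases that no other gene shares. The closest genes were sought at a mean of at least 1 CPM, after adding 0.1 CPM before log2, leaving out the 9 factors, unnamed models and pseudogenes. Named genes are all 9 factors, Ctcf, any listed gene called or with the lowest p of a tissue, and 2 closest genes per factor; where Ctcf had the lowest p, the next genes among Bhlhe40, Cbx3, Stag2, Lmo4 and Ldb2 were named after their values were seen. The factors, lists and motifs were chosen with earlier results of these data known. The fits were tested on simulated data.

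Replicates differed by more than sampling noise in all 30 within-group pairs (chi-square per degree of freedom 15.4 to 640), and nothing says that replicates are separate mice beyond the series design. Libraries of the same replicate number deviated together in brain (r = 0.207, 0.383 and 0.537) and kidney (r = 0.209, 0.190 and 0.212), where every pair passed 0.1. The lowest r was 0.051 in liver and 0.083 in muscle, and in spleen r was -0.472, -0.227 and 0.475. Any such pairing comes from the data and not from the labels. Alternatives were DESeq2 1.42.0, its size factors, total counts, filters of 1 count in all or 10 counts in every library, a fit of all 30 libraries, the replicate number as a block, limma 3.58.1 voom with mouse as a random effect, and leaving out each library or tissue. Leaving out both spleen libraries that stood apart was added after seeing the data. Zfp76 was the 1 listed gene not matched to the tables.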

Additional observations from a re-analysis of the deposited data

How the results depend on the processing

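The number of factors called with genotype was 0 under all 94 alternatives run for the 7 counts (5 tissues, shared effect and interaction). Of 789 alternatives run for single fold changes of the factors and Ctcf, 75 changed the sign, none with a call (lowest edgeR or DESeq2 adjusted p = 0.863). For the listed partner genes, 1 was called with DESeq2 in kidney (Ctcf), in liver (Bhlhe40) and in muscle (Ctcf), 1 in kidney with the 1-count filter and 1 in spleen in the fit of all 30 libraries (Ctcf), while 0 were called for brain in that fit. With the replicate number as a block 1 was called in kidney (Ctcf), and the block changed no other count of called factors or listed genes by genotype. Of the 70 WT tissue pairs it lost 1 and added 2, and over all genes it called 118 instead of 4 for muscle, 0 instead of 45 for spleen, 22 instead of 3 for brain, 21 instead of 4 for kidney and 7 instead of 3 for liver. Leaving out 1 library gave 0 to 0 in brain, where Ctcf was then no longer called whichever library was left out, and 0 to 1 in kidney, with 1 without heterozygous replicate 3.

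Signs that turned, as log2 fold changes: in the fit of all 30 libraries Yy1 in brain was 0.00270, Zfp143 in brain 0.034, Vezf1 in brain 0.052 and Patz1 in spleen -0.013. With the 1-count filter Vezf1 in brain was 0.000394 and Patz1 in spleen -0.00344. On total counts Ldb1 in liver was 0.041 and Vezf1 in spleen 0.00303. Patz1 in spleen was -0.0166 with DESeq2 and -0.0165 with its size factors, and -0.046 without WT replicate 1 and heterozygous replicate 2. The shared value of Maz was -0.0102 with DESeq2 and -0.0103 with its size factors, -0.00110 with the 10-count filter, -0.022 without brain and -0.026 without kidney. Without brain the shared value of Patz1 was -0.00935 and that of Chd8 -0.00455. The cause was not tested.

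Leaving out each library in turn gave these ranges where the sign turned. Brain: Zfp143 -0.091 to 0.015, Maz -0.080 to 0.090, Vezf1 -0.13 to 0.056, Chd8 -0.015 to 0.091, Adnp -0.30 to 0.47 and Ldb1 -0.025 to 0.12. Kidney: Chd8 -0.079 to 0.042. Liver: Yy1 -0.23 to 0.040, Zfp143 -0.18 to 0.015, Patz1 -0.15 to 0.28, Vezf1 -0.13 to 0.00490 and Ldb1 -0.077 to 0.032. Muscle: Yy1 -0.057 to 0.050, Zfp143 -0.079 to 0.20, Maz -0.093 to 0.038, Patz1 -0.085 to 0.27, Vezf1 -0.036 to 0.16, Adnp -0.32 to 0.48 and Ldb1 -0.099 to 0.00625. Spleen: Zfp143 -0.21 to 0.052, Maz -0.28 to 0.076, Patz1 -0.090 to 0.057, Vezf1 -0.13 to 0.045, Chd8 -0.080 to 0.14 and Adnp -0.61 to 0.37. Shared by tissues: Zfp143 -0.072 to 0.033, Maz -0.074 to 0.053, Patz1 -0.032 to 0.12, Vezf1 -0.050 to 0.036, Chd8 -0.00687 to 0.067, Adnp -0.33 to 0.085 and Ldb1 -0.047 to 0.00437. Ctcfl had too few counts to be tested in brain, muscle and spleen.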
